A study of Homo sapiens with 6 samples.

Results

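The genes described here lie on the distal long arm of chromosome 5 and were chosen with the comparison of lenalidomide-selected and control MM.1S cells in view. The rule took rows of the expression table with a single GENCODE position whose midpoint falls between 143.2 and 172.1 Mb (GRCh38) and whose mean over 6 libraries was at least 1 FPKM (sequenced fragments divided by gene length and by library size). Left out were CSNK1A1, NR3C1, CD74, LARS, RARS, NPM1 and symbols of the ribosomal protein, SLC, ABC, KIF and LINC families. Of 12760 genes in the table, 79 lay in the segment. Of these, 54 were members, 10 were left out by name and 15 were below 1 FPKM. MM.1S is an established line of human myeloma cells, the malignant form of antibody-secreting plasma cells. The 3 WT libraries came from cells kept in the solvent DMSO, and the 3 LenR libraries from cells selected with lenalidomide, starting from 10 nM and multiplied by 10 monthly until 3 months had passed. All 6 libraries derive from 1 cell line, and the genotype field of the labels reads WT for the LenR samples too. The labels call the replicates biological and do not say whether LenR was selected more than once, so the spread between libraries may not be that between independent selections.

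Genes are lined up along a chromosome largely without regard to what they do, so a stretch of neighbours usually mixes housekeeping, signalling and tissue-specific genes. The distal 5q arm is known in blood disorders because the 5q- syndrome, a myelodysplastic disease, deletes part of it. RPS14 and CSNK1A1 are among the genes of that deletion, and lenalidomide directs the ubiquitin ligase subunit cereblon to the CSNK1A1 protein, as it does to the myeloma factors IKZF1 and IKZF3. DNA copy number was not analysed here. In a bulk culture, fewer cells with a given transcript and less of it in each cell cannot be told apart.

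The label of these genes as lower in LenR held for the middle of the segment and not for its ends. A member was said to follow the shift when its mean FPKM in LenR was at most 0.8 of that in WT and every LenR library lay below every WT library. It was said to escape when that ratio was at least 1. By these limits 35 of the 54 members followed, 11 escaped and 8 lay in between. Of the 11276 tested genes, which reach the same mean of 1 FPKM, 7.22% met the first limit and 49.8% the second. Groups that did not overlap, with LenR below WT, were seen for 37 members, against 16.5% of all those genes, and with LenR above WT for 5 members, against 18.0%. By limma on log2(FPKM + 1) with Benjamini-Hochberg adjusted p under 0.05, 32 members were called lower (6.57% of the tested genes) and 2 higher (8.57%). These counts describe the genes the rule picked on this contrast and test nothing. The members' median ratio was 0.643, with 43 of 54 below 1, and that of all tested genes was 0.999.

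In chromosomal order 34 of the 35 followers lay in 1 block. Between FBXO38 and CCNG1, a stretch chosen after the values were seen, 34 of 37 members followed, 2 lay in between and 1 escaped. The median ratio there was 0.597 (lower and upper quartile 0.556 and 0.651), so the typical member of this stretch was 40.3% lower in LenR. Of the 17 members on either side, 1 followed, 6 lay in between and 10 escaped, with a median ratio of 1.01. The 7 members before the stretch had a median ratio of 1.01 and the 10 after it 0.962.

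**Figure D1:**
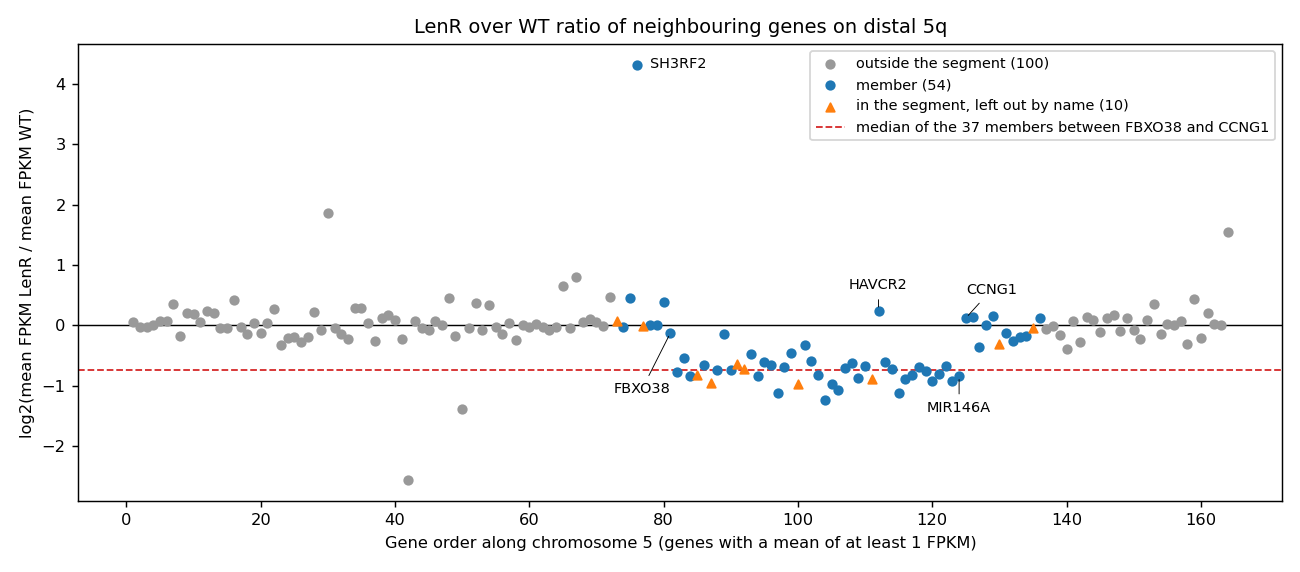
Each point is 1 tested gene, in order along chromosome 5 from 10 Mb before the segment to 5 Mb after it; the y axis is the log2 ratio of mean FPKM in LenR over WT, and the dashed line is the median of the 37 members between FBXO38 and CCNG1. The ratio drops after FBXO38 (0.915) and returns to about equal levels at CCNG1 (1.09), with HAVCR2 above the line inside the stretch and SH3RF2 (20.0) before it.

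Blocks split at 150 and 160 Mb showed the same values at a coarser scale. These limits were also set with the values known, so the blocks are a description and not a separate check. Members from the start of the segment to 150 Mb had a median ratio of 0.981, those from 150 to 160 Mb 0.611, and those from 160 Mb to the end 0.872. Outside the segment, the 72 tested genes of the 10 Mb before it had a median of 1.00 and the 28 of the 5 Mb after it 1.01. The 84 genes of the short arm had a median of 0.977 and the 188 of the rest of 5q before the segment 0.991. Both borders therefore fell inside the segment, not at its ends.

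On the centromere side the change of level came after FBXO38. FBXO38, an F-box subunit of a ubiquitin ligase (chromosome 5, 148383935 to 148442836), measured 14.3, 14.4 and 14.0 FPKM in the WT and 12.5, 13.5 and 13.0 FPKM in the LenR libraries. Its groups did not overlap, but its ratio of 0.915 was far from those of GRPEL2 (0.689) and PCYOX1L (0.556) inside the stretch. On the telomere side the last follower inside the stretch was PTTG1, and the next member after the stretch, CCNG1, was at about an equal level. Beyond CCNG1, HMMR followed too (ratio 0.782). MIR146A, next to PTTG1, and CCNG1 are 2.95 Mb apart, so this border is known less closely. In that gap lie 2 genes below 1 FPKM, ATP10B (ratio 1.08, groups overlapping) and GABRB2 (0.712, every LenR library below every WT library).

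The promoters of genes on either side of these borders are shown because the level changes between them while they are neighbours on 1 chromosome. Each window spans the start of the gene (RefSeq, GRCh38.p14, plus strand for all 5), and SH3RF2, the member that was far higher in LenR, is added. Capitals mark matches, on either strand, of the GC box core GGGCGG, of the TATA box TATAAA and of the E-box CACGTG.
FBXO38 (chr5:148383708-148384007): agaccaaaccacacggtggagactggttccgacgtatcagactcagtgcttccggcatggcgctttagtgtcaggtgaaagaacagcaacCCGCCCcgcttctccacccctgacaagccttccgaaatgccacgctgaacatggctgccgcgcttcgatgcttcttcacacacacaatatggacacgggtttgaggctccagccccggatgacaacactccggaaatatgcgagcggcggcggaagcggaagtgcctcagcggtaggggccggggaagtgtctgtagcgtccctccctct
PCYOX1L (chr5:149357796-149358095): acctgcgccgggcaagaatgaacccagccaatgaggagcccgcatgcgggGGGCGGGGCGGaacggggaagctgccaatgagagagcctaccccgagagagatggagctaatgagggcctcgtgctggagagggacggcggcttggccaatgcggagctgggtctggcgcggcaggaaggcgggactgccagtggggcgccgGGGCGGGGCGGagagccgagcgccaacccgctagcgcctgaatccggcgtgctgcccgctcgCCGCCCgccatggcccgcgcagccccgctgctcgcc
PTTG1 (chr5:160421605-160421904): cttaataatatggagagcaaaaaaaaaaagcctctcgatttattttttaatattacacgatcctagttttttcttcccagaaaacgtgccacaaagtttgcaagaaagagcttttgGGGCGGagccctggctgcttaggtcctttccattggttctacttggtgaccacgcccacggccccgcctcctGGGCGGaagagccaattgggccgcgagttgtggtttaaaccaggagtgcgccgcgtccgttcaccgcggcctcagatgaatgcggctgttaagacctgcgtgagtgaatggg
CCNG1 (chr5:163437321-163437620): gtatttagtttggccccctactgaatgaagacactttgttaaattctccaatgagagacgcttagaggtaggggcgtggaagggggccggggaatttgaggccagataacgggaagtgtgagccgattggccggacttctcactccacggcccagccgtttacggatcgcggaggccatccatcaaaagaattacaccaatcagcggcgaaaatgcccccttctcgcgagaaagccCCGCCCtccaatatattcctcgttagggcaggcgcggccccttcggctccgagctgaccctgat
SH3RF2 (chr5:145936328-145936627): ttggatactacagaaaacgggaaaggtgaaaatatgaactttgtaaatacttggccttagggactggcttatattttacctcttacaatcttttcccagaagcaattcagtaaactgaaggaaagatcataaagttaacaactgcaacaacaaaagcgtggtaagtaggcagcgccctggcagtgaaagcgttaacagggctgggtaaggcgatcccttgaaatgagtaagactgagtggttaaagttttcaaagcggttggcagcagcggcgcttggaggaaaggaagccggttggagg
GGGCGG or its reverse complement occurred 1 time in each of the windows of FBXO38 and CCNG1, 5 times in that of PCYOX1L and 2 times in that of PTTG1, with the 3 motifs counted separately. It was not found in that of SH3RF2. The windows of PCYOX1L and PTTG1, which followed, held 33 and 18 CpG dinucleotides, and those of FBXO38 and CCNG1, which did not, 23 and 21. CpG density therefore did not order these 4 windows by what the genes did in LenR, and the SH3RF2 window held 9.

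The lower level of the stretch was seen in each LenR library. Relative to the WT mean, the median of the 37 members was 0.594, 0.605 and 0.601 in LenR replicates 1 to 3 and 0.992, 0.998 and 1.00 in WT replicates 1 to 3. For the 17 members outside the stretch the LenR medians were 0.974, 0.990 and 1.05. WT replicate 3 and LenR replicate 2 stood apart from the other libraries: on the second principal component of the tested genes (26.8% of the variance) they scored -14.0 and -13.7, and the 4 others 2.62 to 12.7. Between these 2 libraries the median ratio of the stretch was 0.615, and in the 4 others 0.591. WT replicates 1 and 2 were much closer to each other (chi-square per gene 1.83, where sampling noise alone gives about 1) than any other pair of 1 group (9.29 to 23.5), and were kept as separate samples.

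**Figure D2:**
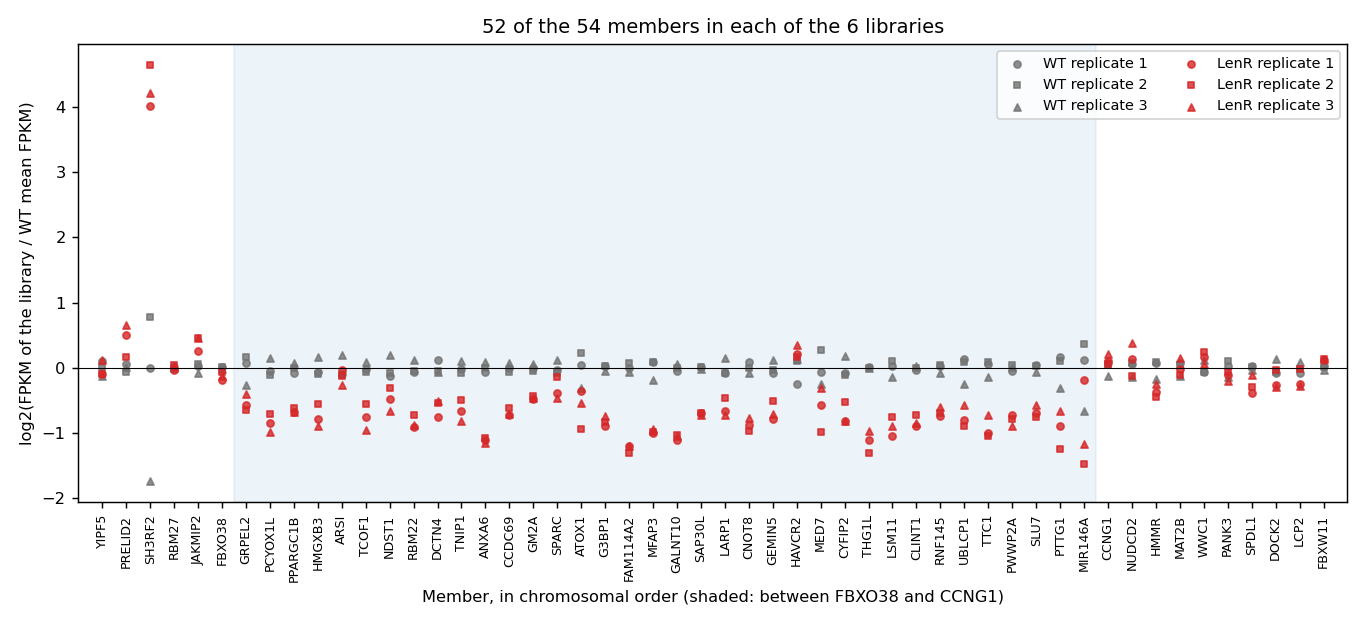
Points are the 6 libraries of each of 52 members in chromosomal order, as log2 of FPKM over the WT mean; grey is WT, red LenR and the shape the replicate, and the shaded band holds those between FBXO38 and CCNG1. Red points lie below grey ones for 33 of the 36 shaded members, and the colours overlap for 9 of the 16 members on either side.

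The reads worked out from the FPKM steps came to 14500140 to 17387914 per library, with a median of 844 reads per member and library. SH3RF2 and MIR146A were the 2 members with fewer than 40 reads in some library. All 9 plasma cell markers looked at were in the table, with a summed level of 3918 to 4534 FPKM in WT and 4617 to 5550 FPKM in LenR. Of the T and NK cell, myeloid, epithelial and stromal, and erythroid markers, 1 of 4, 0 of 4, 1 of 4 and 1 of 3 were listed. CD3E stood at 2.61 ± 0.324 FPKM in WT and 1.96 ± 0.115 FPKM in LenR, HBB 6.66 ± 0.718 and 6.67 ± 1.46 FPKM, and COL1A1 was below 1 FPKM (mean ± SD, n = 3). Their part in the members' values was not tested.

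Of the 11 members that act in RNA processing and translation, all 9 inside the stretch followed, with a median ratio of 0.565, and both outside it escaped. G3BP1, an RNA-binding protein that nucleates stress granules (151771045 to 151812785), measured 93.0, 93.4 and 88.9 FPKM in the WT and 49.2, 51.7 and 54.9 FPKM in the LenR libraries. The LenR values lay close together and far below WT, at 51.9 ± 2.86 against 91.8 ± 2.49 FPKM (mean ± SD, n = 3), a ratio of 0.565. TCOF1 encodes treacle, a nucleolar protein needed for ribosomal RNA synthesis, and measured 40.1, 38.5 and 42.9 FPKM in the WT and 24.1, 27.5 and 21.0 FPKM in the LenR libraries (ratio 0.596). LARP1, which binds mRNAs of the translation machinery downstream of mTOR, measured 67.3, 66.8 and 78.7 FPKM in the WT and 44.7, 51.2 and 42.7 FPKM in the LenR libraries (ratio 0.651). In TCOF1 and LARP1 alike, WT replicate 3 was the highest WT library and LenR replicate 2 the highest LenR library, and the groups stayed apart.

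CNOT8, a deadenylase subunit of the CCR4-NOT complex, measured 25.1, 23.4 and 22.2 FPKM in the WT and 12.8, 12.0 and 13.7 FPKM in the LenR libraries, a ratio of 0.545. THG1L, which adds a guanosine to histidine tRNA, had the second lowest ratio of the members (0.460), with 14.1, 13.9 and 13.9 FPKM in the WT and 6.47, 5.66 and 7.14 FPKM in the LenR libraries. The spliceosome proteins RBM22 (ratio 0.559) and SLU7 (0.627), the snRNP assembly factor GEMIN5 (0.630) and the histone mRNA processing factor LSM11 (0.539) also followed. RBM27, an RNA-binding protein, measured 7.16, 7.13 and 7.08 FPKM in the WT and 6.94, 7.31 and 7.26 FPKM in the LenR libraries, and its groups overlapped (ratio 1.01).

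All 5 members with roles in transcription and chromatin lay in the stretch and followed, with ratios from 0.574 to 0.659. They were PWWP2A, a chromatin reader (0.574), HMGXB3, an HMG-box protein (0.597), SAP30L of the SIN3 deacetylase complex (0.612), the nuclear receptor coactivator PPARGC1B (0.632) and the Mediator subunit MED7 (0.659).

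The 10 members of cell division, kinase, phosphatase and ubiquitin ligase roles were split by position: 3 of 3 inside the stretch followed, and outside it 1 followed, 2 lay in between and 4 escaped. PTTG1 encodes securin, the inhibitor of separase that is destroyed at anaphase, and lies at the telomeric edge (160421822 to 160428744). It measured 78.9, 74.9 and 56.5 FPKM in the WT and 37.8, 29.4 and 44.0 FPKM in the LenR libraries, a ratio of 0.529. In each group the library with the lowest value was 1 of the 2 that stand apart, WT replicate 3 and LenR replicate 2, and the groups did not overlap. The nuclear proteasome phosphatase UBLCP1 (0.593) and the endoplasmic reticulum ligase RNF145 (0.622) followed as well.

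Just beyond the stretch, 4 adjacent genes had different values. CCNG1, cyclin G1 and a target of p53 (163437569 to 163446151), measured 45.1, 44.1 and 39.4 FPKM in the WT and 45.9, 44.4 and 49.6 FPKM in the LenR libraries (ratio 1.09). NUDCD2, a NudC domain protein, measured 36.8, 37.0 and 31.8 FPKM in the WT and 38.6, 32.3 and 46.0 FPKM in the LenR libraries (ratio 1.11), with a wide LenR range that overlapped WT. HMMR, the hyaluronan-mediated motility receptor that acts at the mitotic spindle, was the only member outside the stretch that followed, at 16.9, 17.2 and 14.4 FPKM in the WT and 12.4, 11.8 and 13.6 FPKM in the LenR libraries (ratio 0.782). MAT2B, the regulatory subunit of methionine adenosyltransferase, measured 51.2, 50.1 and 44.5 FPKM in the WT and 47.8, 44.8 and 54 FPKM in the LenR libraries, with overlapping groups. HMMR therefore stood below the ratio of its 3 neighbours.

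Farther on, SPDL1, the kinetochore adaptor spindly, measured 15.3, 15.2 and 14.7 FPKM in the WT and 11.5, 12.3 and 14.0 FPKM in the LenR libraries (ratio 0.836) and was the member nearest above the limit for following. FBXW11, a beta-TrCP F-box protein at the end of the segment, measured 16.5, 16.2 and 15.8 FPKM in the WT and 17.4, 17.6 and 17.8 FPKM in the LenR libraries. Its LenR libraries all lay above WT, by a small step (ratio 1.09).

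The secretory pathway, vesicle traffic and lysosome held the most members, 13, of which 12 lay in the stretch and 11 followed. ANXA6, annexin A6, a calcium-dependent membrane-binding protein (151100712 to 151157882), had the highest level of all members and measured 242, 253 and 269 FPKM in the WT and 118, 121 and 114 FPKM in the LenR libraries. LenR was at 117 ± 3.27 against 254 ± 13.7 FPKM, a ratio of 0.462 (log2 fold change on log2(FPKM + 1) −1.11, SE 0.08). FAM114A2 had the lowest ratio of the members, 0.423, and measured 9.89, 10.4 and 9.38 FPKM in the WT and 4.29, 3.98 and 4.26 FPKM in the LenR libraries. Between G3BP1 and FAM114A2 lies a gap of 2.18 Mb with no positioned gene of the table, and the 3 members after it, FAM114A2, MFAP3 and GALNT10, had ratios from 0.423 to 0.508.

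MFAP3, a microfibril-associated protein next to FAM114A2, measured 11.9, 12.0 and 9.80 FPKM in the WT and 5.63, 5.64 and 5.87 FPKM in the LenR libraries (ratio 0.508). GALNT10, an enzyme that starts O-linked glycosylation, measured 31.6, 32.5 and 33.8 FPKM in the WT and 15.2, 16.0 and 15.7 FPKM in the LenR libraries (ratio 0.478). The exons of FAM114A2 and MFAP3 overlap on opposite strands, and those of MFAP3 and GALNT10 on the same strand. Reads of the parts shared by MFAP3 and GALNT10 cannot be told apart by strand. For FAM114A2 and MFAP3 this depends on the strand setting of the counting, which is not given. CLINT1, an adaptor of clathrin-coated vesicles, measured 41.0, 41.8 and 42.8 FPKM in the WT and 22.6, 25.3 and 23.2 FPKM in the LenR libraries (ratio 0.567). TTC1, a tetratricopeptide adaptor protein, measured 50.9, 52.1 and 44.3 FPKM in the WT and 24.5, 23.8 and 29.8 FPKM in the LenR libraries (ratio 0.530).

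PCYOX1L, a relative of prenylcysteine oxidase, measured 36.7, 35.5 and 42.6 FPKM in the WT and 21.2, 23.3 and 19.4 FPKM in the LenR libraries (ratio 0.556). Smaller steps were seen for the lysosomal GM2 activator GM2A (0.727), the heparan sulfate enzyme NDST1 (0.718) and the dynactin subunit DCTN4 (0.658). SPARC, the matrix protein osteonectin (151661096 to 151687165), was the member nearest inside the limit, with 7.78, 7.59 and 8.67 FPKM in the WT and 6.10, 7.23 and 5.78 FPKM in the LenR libraries (ratio 0.795). The sulfatase gene ARSI (ratio 0.904) lay in between with overlapping groups, although HMGXB3 and TCOF1, the members on either side, followed. YIPF5, a protein of the early secretory pathway before the stretch, measured 16.3, 15.3 and 13.9 FPKM in the WT and 14.1, 14.1 and 16.4 FPKM in the LenR libraries and was the member nearest below the limit for escaping (ratio 0.981).

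Both members of mitochondrial, redox and metabolic roles inside the stretch followed, and none of the 3 outside it did. ATOX1, the copper chaperone of the secretory pathway, measured 66.3, 75.0 and 51.8 FPKM in the WT and 50.0, 33.4 and 44.1 FPKM in the LenR libraries (ratio 0.660). Its spread was wide, and the highest LenR library was only just below the lowest WT library. The exons of ATOX1 overlap those of G3BP1 on the opposite strand. GRPEL2, a cochaperone of mitochondrial protein import, had a ratio of 0.689, and PANK3, a pantothenate kinase of coenzyme A synthesis beyond the stretch, 0.919.

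Among the 7 members listed under immune and receptor signalling, 3 followed, TNIP1 and CCDC69 among them. TNIP1 encodes ABIN-1, a ubiquitin-binding partner of the NF-kB inhibitor A20, and measured 59.4, 56.9 and 65.3 FPKM in the WT and 38.3, 42.8 and 34.3 FPKM in the LenR libraries (ratio 0.635). CCDC69, a coiled-coil protein gene next to ANXA6, is in this list without a signalling role being given for it here. It measured 67.5, 64.8 and 71.8 FPKM in the WT and 40.9, 44.5 and 41.7 FPKM in the LenR libraries (ratio 0.623). CYFIP2, a subunit of the actin-regulating WAVE complex and 1 of 3 members with cytoskeletal roles, measured 53.4, 52.0 and 64.1 FPKM in the WT and 32.1, 39.1 and 32.0 FPKM in the LenR libraries (ratio 0.609). In these 3 genes the ratio lay between 0.609 and 0.635, and no LenR library reached the WT range.

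DOCK2 and LCP2 are blood cell genes near the end of the segment and lay in between. DOCK2, a guanine nucleotide exchange factor for Rac in lymphocytes, measured 39.2, 39.3 and 45.5 FPKM in the WT and 34.3, 40.1 and 33.6 FPKM in the LenR libraries (ratio 0.872), and LCP2, the adaptor SLP-76, had a ratio of 0.884. Both had overlapping groups.

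MIR146A, the gene of a microRNA that dampens NF-kB signalling, lies at the telomeric edge of the stretch, and its main mature product carries the seed (bases 2 to 8) shown in capitals (RefSeq, chr5:160485372-160485393, GRCh38.p14, plus strand).
hsa-miR-146a-5p: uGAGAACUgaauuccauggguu
The row MIR146A measured 15.5, 18.3 and 8.99 FPKM in the WT and 12.5, 5.10 and 6.35 FPKM in the LenR libraries. The groups overlapped through LenR replicate 1 and WT replicate 3, so it did not follow despite a ratio of 0.559. These values rest on 70 reads in WT and 37 in LenR over a gene of 99 bases. The ratio of these reads per library size was 0.538 (95% exact interval 0.351 to 0.812, counting error only). They lie in an exon of the host transcript MIR3142HG on the same strand and are not a measure of the mature microRNA.

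**Figure D3:**
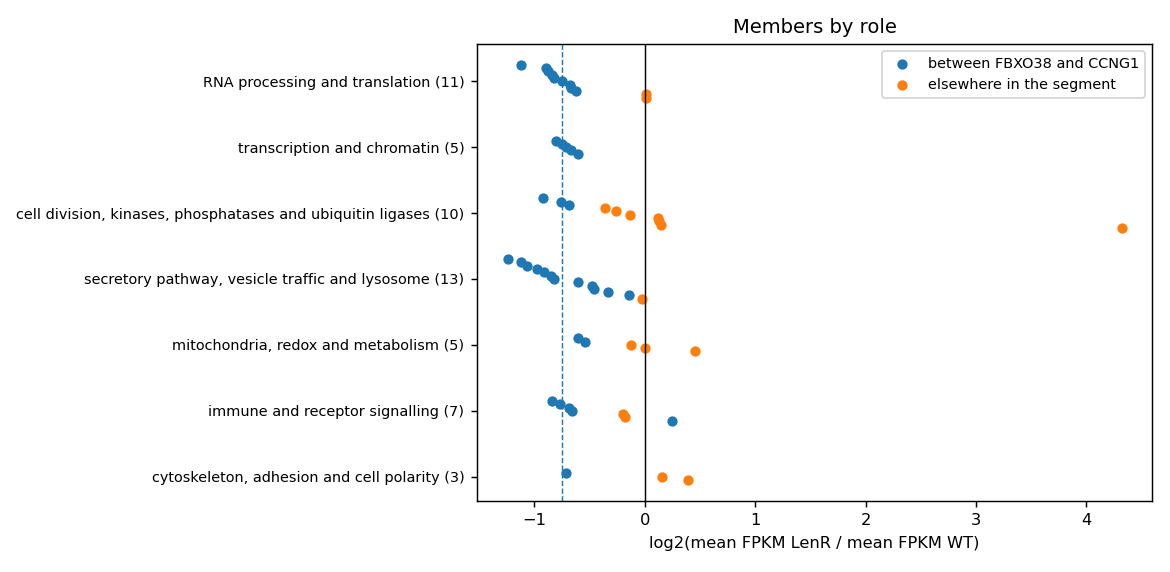
Each point is 1 of the 54 members, grouped by role (number of members in parentheses), with the log2 ratio of mean FPKM in LenR over WT on the x axis; blue points lie between FBXO38 and CCNG1, orange ones elsewhere in the segment, and the dashed line is the median of the blue points. The blue points run from -1.24 (FAM114A2) to -0.14 (ARSI), with HAVCR2 at 0.24, and the orange ones from -0.35 (HMMR) to 0.46 (PRELID2), with SH3RF2 at 4.32.

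HAVCR2 was the escaper inside the stretch. It encodes TIM-3, an inhibitory receptor best known on T cells and myeloid cells (157085832 to 157142869), and measured 5.42, 6.95 and 7.07 FPKM in the WT and 7.52, 7.27 and 8.24 FPKM in the LenR libraries. Every LenR library was above every WT library (ratio 1.18), by less than the range within WT. Its neighbour MED7 had a ratio of 0.659, and exons of both genes overlap on the same strand.

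The other escapers lay before or after the stretch. SH3RF2, a RING-finger and SH3-domain protein of the POSH family (145936579 to 146081791), measured 0.150, 0.258 and 0.0450 FPKM in the WT and 2.44, 3.80 and 2.80 FPKM in the LenR libraries. It passed the limit of 1 FPKM through LenR alone, and an exon overlaps GRXCR2 on the opposite strand. The reads were 8, 13 and 2 in WT and 108, 183 and 149 in LenR, which per library size is a ratio of 19.5 (95% exact interval 12.8 to 31.0, counting error only). On the log2(FPKM + 1) scale the difference was 1.79 (SE 0.13). Both neighbours of SH3RF2 in the table, PRELID2 and LARS, had ratios of 1.37 and 0.991.

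JAKMIP2, a coiled-coil protein of the JAKMIP family, measured 4.73, 4.81 and 4.36 FPKM in the WT and 5.52, 6.33 and 6.37 FPKM in the LenR libraries (ratio 1.31), with LenR above WT in every library. PRELID2, a gene of the PRELI family of mitochondrial lipid carriers, showed the same order (ratio 1.37). WWC1, the Hippo pathway protein KIBRA, measured 9.42, 9.39 and 10.7 FPKM in the WT and 11.0, 11.6 and 10.3 FPKM in the LenR libraries, and its groups overlapped (ratio 1.11). Without SH3RF2, the ratios of the members ended at 1.37.

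**Figure D4:**
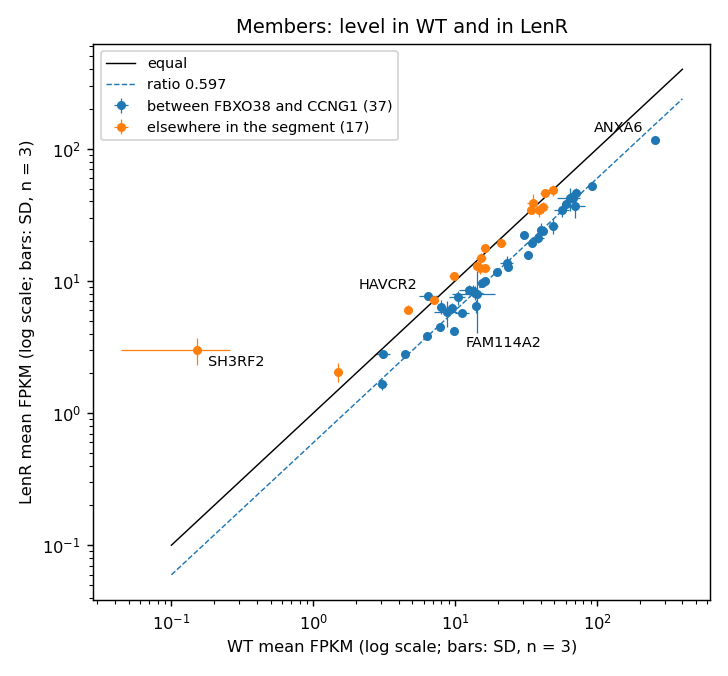
Points are the 54 members, with mean FPKM in WT on the x axis and in LenR on the y axis, both on log scales, and bars for the SD over 3 libraries; the solid line marks equal levels and the dashed line the median ratio of the stretch, 0.597. Blue points (between FBXO38 and CCNG1) span 3.06 to 254 FPKM in WT and lie below the solid line in 36 of 37 members, HAVCR2 being above it, and orange points (elsewhere in the segment) lie below it in 7 of 17, with SH3RF2 far above.

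The genes of the segment that were left out by name had the same order along the chromosome. The segment and the stretch were chosen on this contrast, so these genes are not a separate check. Of the 10 left out by name, the 6 inside the stretch (CSNK1A1, SLC26A2, CD74, RPS14, SLC36A1 and MRPL22) all met the limits for following, with ratios from 0.511 to 0.641. The 4 outside it (NR3C1, LARS, RARS and NPM1) did not, with ratios from 0.810 to 1.06. RPS14, a protein of the small ribosomal subunit, measured 824, 866 and 617 FPKM in the WT and 546, 332 and 527 FPKM in the LenR libraries. Here too the lowest library of each group was 1 of the 2 that stand apart.

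Of the 15 genes below 1 FPKM, 9 lay in the stretch, and 6 of these had every LenR library below every WT library with a ratio of at most 0.8. Of the 6 outside it, 2 met the same limits. The median ratio was 0.509 in the stretch and 0.775 outside it. The share of all genes below 1 FPKM that met these limits was not worked out. The antisense gene SAP30L-AS1 was at 0.776 ± 0.177 FPKM in WT and 0.259 ± 0.0394 FPKM in LenR. PDGFRB (ratio 1.22, groups overlapping) was the 1 gene of the 9 with a ratio above 1. Outside the stretch, PPP2R2B, a regulatory subunit of protein phosphatase 2A located before JAKMIP2, went from 1.24 ± 0.157 FPKM in WT to 0.508 ± 0.0316 FPKM in LenR, a ratio of 0.408. ZBED8, in the stretch, was the gene nearest under the limit (0.941 FPKM over all libraries, ratio 0.490), and SH3RF2 (1.58 FPKM) was the lowest member above it.

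Within the stretch the ratio was only weakly ordered by other properties of the genes. Across its 37 members Spearman's rho with the ratio was −0.28 for the WT level, 0.22 for the gene length behind the FPKM and −0.30 for position. These are descriptions over neighbours that share libraries and chromosome, and the WT level also enters the ratio. WT levels in the stretch ranged from 3.06 FPKM (LSM11) to 254 FPKM (ANXA6), with a median of 16.2 FPKM, and outside it the median was 16.1 FPKM.

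Promoter windows were found for 48 of the 54 members. Those of the 33 members in the stretch held a median of 22 CpG dinucleotides, those of the 15 members outside it 20, and those of 8461 tested genes 27. GGGCGG on either strand was present in 63.6% of windows in the stretch and 66.7% outside it, against 71.0% of tested genes and 44.6% of all 27305 windows. TATAAA was found in 1 member window (5.00% of tested genes and 12.0% of all windows), and CACGTG in 2 (10.7% and 7.43%).

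Exons of 8 members overlap those of another gene of the table on the opposite strand, and the strand setting of the counting is not given in the sources used here. Without the 7 of these in the stretch, the other 30 had a median ratio of 0.617.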

How the data were processed

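The 6 libraries are RNA-seq of MM.1S cells. The deposited table holds FPKM per gene, and per the submitters' processing notes the tools include HISAT2 2.2.1 (build hg38) and featureCounts 2.0.3, besides edgeR 3.40.2 and FastQC 0.11.9. No label or header names the gene annotation or strand setting. The FPKM steps gave whole reads for all 12760 genes, 14500140 to 17387914 per library, which sets only the counting error of each value. Positions were taken from GENCODE release 29 by symbol or synonym, and 12426 names (97.4%) had 1 position. Tests used limma 3.58.1 (R 4.3.3) on log2(FPKM + 1) over the 11276 genes whose mean reached 1 FPKM, with a Benjamini-Hochberg adjusted p under 0.05, after a test on simulated data. Members and lists, roles and markers included, were chosen with earlier results of these data known, so the members' values are descriptions.

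Values in every library were given for members averaging 5 FPKM or more that were among the 10 lowest ratios or were escapers, for the 10 highest means, for those nearest each limit, and for a list that held TCOF1, G3BP1, SPARC, TNIP1, PTTG1, HMMR, CCNG1, FBXW11, DOCK2, LARP1 and CLINT1. FBXO38 and SH3RF2 were added after their values were seen. Some members count in the totals but are not reported here individually. Alternatives changed the pseudocount, low-value filter, normalization, variance trend, tool (voom on whole reads), replicate block and the libraries used.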

Additional observations from a re-analysis of the deposited data

How the results depend on the processing

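The members' lower level kept its direction under each alternative run: the 19 named members of the stretch between FBXO38 and CCNG1 were below 0 in all 18 alternatives, and no value reversed. The median log2 fold change of the 54 members was -0.59, and it was -0.63 with a pseudocount of 0.1, -0.64 with voom and with ratios of group means, and -0.56 with WT replicates 1 and 2 averaged (-0.59 to -0.56 leaving out 1 library). For the stretch, chosen after seeing the data, it was -0.68, and -0.74 and -0.72 with pseudocounts of 0.1 and 0.5, -0.75 with voom, -0.70 without the 2 libraries that stand apart and -0.64 without members that overlap another gene on the opposite strand (-0.69 to -0.66 leaving out 1 library). The median of all genes was -0.012 after quantile normalization (-0.006 to 0.004 leaving out 1 library). Members called higher were 2, and 1 with a mean of at least 5 FPKM, with the replicate block or with WT replicates 1 and 2 averaged (1 to 2 leaving out 1 library). All genes called were 1707, and 1075, 907 and 1055 under the same 3 settings (1006 without WT replicate 1 to 1562 without WT replicate 3). The filter of 5 FPKM left out SH3RF2 (mean 1.58 FPKM), 1 of the 2 members called higher, and every other gene of a lower mean. The cause of the other moves was not tested. The labels do not say whether WT and LenR libraries of the same number were paired. Their deviations from the group means correlated at 0.024, -0.557 and -0.683, which with so few libraries cannot settle it. With the replicate block 29 members were called lower. Escapers numbered 8 without LenR replicate 3 and up to 12 without WT replicate 1. Depth limits SH3RF2 and MIR146A most.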
